A study of Mus musculus with 24 samples.

Results

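The major histocompatibility complex (MHC) of the mouse was described through the chromatin accessibility peaks that start at or after position 33500000 and end at or before position 38500000 of chromosome 17, in coordinates of mm10 as the peak table gives them. The rule took 489 of the 271433 peaks in the table and used no measured value. Accessibility had been measured by single-nucleus ATAC-seq, in which a transposase cuts open chromatin, in amygdala of adult male mice of 2 inbred strains labelled BL6 and DBA. Each strain had 2 ATAC libraries and 2 single-nucleus RNA-seq libraries, and about 2 untreated animals, 10 to 16 weeks old, went into each library. The series holds 24 samples in all, of which 16 methylation libraries were not analysed here. Every animal came from the same supplier, the label DBA does not say which DBA substrain was used, and the count tables number the libraries of each strain 2 and 3. The counts were already summed over nuclei of a cell type in each library, so p-values measure the spread between these pools of animals. The labels name no MHC haplotype.

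The MHC holds class I genes, whose products present peptides from inside the cell to cytotoxic T cells, class II genes, whose products present engulfed antigen to helper T cells, and class III genes, among them complement and cytokine genes. Inbred strains carry different MHC haplotypes, which differ in sequence and in which class I genes of the D, Q and T groups are present. In brain, class I genes are known from neurons as well as microglia, and class II genes mainly from microglia and infiltrating immune cells.

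The table's genome build, mm10, is an assembly of C57BL/6J, and how the reads of DBA libraries were brought onto it is not given in the sources used here. What this did to the counts of individual peaks was not tested. The class I genes are close copies of one another, and counts at near-identical copies are uncertain in both strains. How close the copies are can be seen in the bases before their starts. For the stretches below, a start is that of a RefSeq promoter entry, and for H2-K1 and H2-Q7 it lies inside the gene. The 8 stretches printed here are the 250 bases before the RefSeq start (build GRCm38.p6, gene strand, 5′ to 3′) of the genes whose start peaks carry the strain result, and capitals mark, on either strand, the motifs CCAAT, TGACGTCA and the interferon-stimulated element written as GAAA, any 2 bases and GAAA. They lie at chr17:35262844-35263093 (H2-D1, plus strand), chr17:34000348-34000597 (H2-K1, minus strand, the upstream of its 2 entries), chr17:35424600-35424849 (H2-Q6, plus), chr17:35438905-35439154 (H2-Q7, plus), chr17:35342057-35342306 (H2-Q2, plus), chr17:36042743-36042992 (H2-T22, minus), chr17:34287824-34288073 (H2-Aa, minus) and chr17:33981242-33981491 (AA388235, plus).
H2-D1: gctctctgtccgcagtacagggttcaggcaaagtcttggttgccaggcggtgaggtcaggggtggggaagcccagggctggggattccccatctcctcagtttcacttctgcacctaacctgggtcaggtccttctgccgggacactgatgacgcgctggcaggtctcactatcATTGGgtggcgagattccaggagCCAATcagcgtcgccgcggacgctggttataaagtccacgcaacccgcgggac
H2-K1: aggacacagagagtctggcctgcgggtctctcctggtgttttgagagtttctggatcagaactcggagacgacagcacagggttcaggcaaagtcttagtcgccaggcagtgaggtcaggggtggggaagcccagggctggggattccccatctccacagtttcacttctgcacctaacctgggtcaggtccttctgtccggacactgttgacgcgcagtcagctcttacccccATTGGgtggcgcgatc
H2-Q6: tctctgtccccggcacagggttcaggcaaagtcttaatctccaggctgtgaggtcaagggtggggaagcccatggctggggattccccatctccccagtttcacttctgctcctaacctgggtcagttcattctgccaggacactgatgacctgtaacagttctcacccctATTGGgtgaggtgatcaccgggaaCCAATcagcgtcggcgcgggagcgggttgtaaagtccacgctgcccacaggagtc
H2-Q7: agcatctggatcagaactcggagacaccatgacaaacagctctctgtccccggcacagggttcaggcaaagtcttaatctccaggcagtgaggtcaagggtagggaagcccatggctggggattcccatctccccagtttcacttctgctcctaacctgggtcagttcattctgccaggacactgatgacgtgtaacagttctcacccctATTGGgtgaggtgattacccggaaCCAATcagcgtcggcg
H2-Q2: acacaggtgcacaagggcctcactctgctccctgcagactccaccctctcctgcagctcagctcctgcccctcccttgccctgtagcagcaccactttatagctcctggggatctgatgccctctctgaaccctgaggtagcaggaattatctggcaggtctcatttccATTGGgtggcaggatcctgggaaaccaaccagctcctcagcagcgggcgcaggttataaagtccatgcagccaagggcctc
H2-T22: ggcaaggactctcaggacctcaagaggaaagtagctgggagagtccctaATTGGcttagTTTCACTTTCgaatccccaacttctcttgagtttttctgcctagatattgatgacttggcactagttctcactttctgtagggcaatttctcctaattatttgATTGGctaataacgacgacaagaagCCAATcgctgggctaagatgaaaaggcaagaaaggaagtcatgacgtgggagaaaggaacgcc
H2-Aa: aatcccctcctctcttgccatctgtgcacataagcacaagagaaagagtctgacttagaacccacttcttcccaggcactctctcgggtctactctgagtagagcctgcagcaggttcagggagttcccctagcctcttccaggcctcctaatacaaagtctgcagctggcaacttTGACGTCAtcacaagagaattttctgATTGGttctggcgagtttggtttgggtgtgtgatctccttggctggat
AA388235: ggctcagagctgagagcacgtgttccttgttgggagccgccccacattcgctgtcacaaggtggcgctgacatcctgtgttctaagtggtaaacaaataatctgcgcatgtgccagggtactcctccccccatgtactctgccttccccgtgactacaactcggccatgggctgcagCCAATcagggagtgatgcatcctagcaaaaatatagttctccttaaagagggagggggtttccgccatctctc

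H2-Q6 and H2-Q7 were the closest printed pair, with 205 identical bases of 210 aligned (97.6%), yet their start peaks differed in opposite directions between the strains, as given below. H2-K1 and H2-D1 shared 167 of 190 aligned bases (87.9%). CCAAT, in either orientation, was found in all 8 stretches and in 31 of 35 promoter entries of H2 genes. It was found in 33.8% of 32851 mouse promoter entries and 41.1% of 265 entries in the region. In H2-D1 the nearest 2 copies began 53 and 76 bases before the start, and in H2-Q6 55 and 79 bases. TGACGTCA, the letters of a cyclic AMP response element, stood in H2-Aa 74 bases before the start, and in 1.55% of all promoter entries. The interferon-stimulated element, in the strict form given above, stood in H2-T22 with its first base 191 bases before the start, and in 2.98% of all entries. Looser forms of this element were not searched, so the other stretches are not shown to lack it. All these motif hits are matches of letters in a reference of the BL6 type and say nothing of the DBA sequence.

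Members were 199 to 2363 bases long with a median of 578, against 474 over all peaks. Peaks stood at 97.8 per Mb, and 188 of the 489 lay within 1 kb of a RefSeq gene start, 170 lay elsewhere within a gene and 131 lay between genes. Of the 46 genes of the region with an H2 symbol, 30 had a member at the start. H2-Ea, H2-Oa, H2-M2, C2, Tnf, Mog and Notch4 had none within that distance. The segments, named by the genes that open them, ran from 18.9 members per 100 kb between Pou5f1 and H2-T24 to 1.81 per 100 kb in the distal segment of olfactory receptor genes after Mog. The first member, at 33523285-33525282, had 13.7 and 12.1 CPM (counts scaled to the total of the library, or for a class or cell type to its own total in the library) in BL6 and 12.7 and 12.6 in DBA, and the last peak left out before it, at 33449987-33450562, had 1.21, 1.35, 1.93 and 1.41 CPM. The last member, at 38026320-38026600, lay below 1 CPM in all 4 libraries, as did the next peak after it.

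ATAC libraries held 66535381 to 86927891 counts in 3694 to 6943 nuclei, and RNA libraries 30693629 to 66304405 counts in 2867 to 8079 nuclei. The ATAC nuclei had been sorted without the neuronal antibody NeuN, and non-neuronal nuclei numbered 67 to 167 per library with 1222826 to 1847735 counts. In the RNA libraries, non-neuronal nuclei numbered 1316 to 2954 per library, a far larger share. The cause of this difference between the assays was not tested. Peaks at the starts of the GABA synthesis genes Gad1 and Gad2 stood at 30.4 and 24.9 CPM in nuclei labelled inhibitory and at 3.41 and 3.14 in those labelled excitatory, and the glutamate transporter genes Slc17a7 and Slc17a6 at 11.3 and 25.8 CPM in excitatory against 2.10 and 6.11 in inhibitory nuclei. For the non-neuronal class the ATAC table had no peak at the start of any of 5 microglia, 4 oligodendrocyte and 2 precursor markers, and a peak at 2 of 4 astrocyte markers, Gja1 (14.1 CPM in non-neuronal nuclei, 4.92 and 4.83 in excitatory and inhibitory neurons) and Slc1a3 (15.7 against 8.19 and 6.26). All 3 endothelial markers had a start peak, and Cldn5 did not stand out in non-neuronal nuclei (5.80 CPM, against 4.37 and 6.47), nor did Tek (0.681 against 0.471 and 0.608), while Flt1 had 8.51 CPM against 4.10 and 5.15. Gad1 stood at 15.4 CPM in non-neuronal nuclei and Slc17a6 at 11.7, and the part of neuronal signal in the non-neuronal results was not tested.

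Between the strains, 80 of the 489 members (16.4%) passed the test over all nuclei (edgeR quasi-likelihood test, Benjamini-Hochberg adjusted p under 0.05 over the whole table), 40 higher and 40 lower in DBA. Over all peaks 6.44% passed, 3.21% higher and 3.23% lower, and over the rest of chromosome 17 768 of 9141 (8.40%). Start peaks of the class I genes H2-D1, H2-K1, H2-T22, H2-Q4 and H2-Q6 and of the class II gene H2-Aa were higher in DBA, and those of H2-Bl, H2-Q2, H2-T10, H2-Q7 and the predicted gene AA388235 were lower. At a change of at least 4-fold, a count added after the data were seen, 18 members passed (3.68%), 17 of them lower in DBA, against 0.552% of all peaks, of which 892 were lower and 607 higher. In another added comparison, the 16 other windows of 5 Mb on the chromosome with 100 or more peaks had 1.63% to 14.9% of peaks called, with a median of 7.46%. The 3 windows of fewer peaks had 2.08% (1 of 48), 6.82% (6 of 88) and 16.4% (9 of 55), the last level with the region. Among members at or above the median level of the members, 38 of 245 (15.5%) passed, against 5499 of 81299 peaks (6.76%) at those levels. With a library left out the number higher in DBA ran from 24 (without BL6 library 3) and 26 (without BL6 library 2) to 56 (without DBA library 3), and the number lower from 32 to 43. Over all peaks the number higher in DBA also fell without either BL6 library and rose without DBA library 3. At a fold threshold of 1.5, 9 members were higher and 25 lower, against 2040 and 2338 of all 271420 peaks tested.

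**Figure D1:**
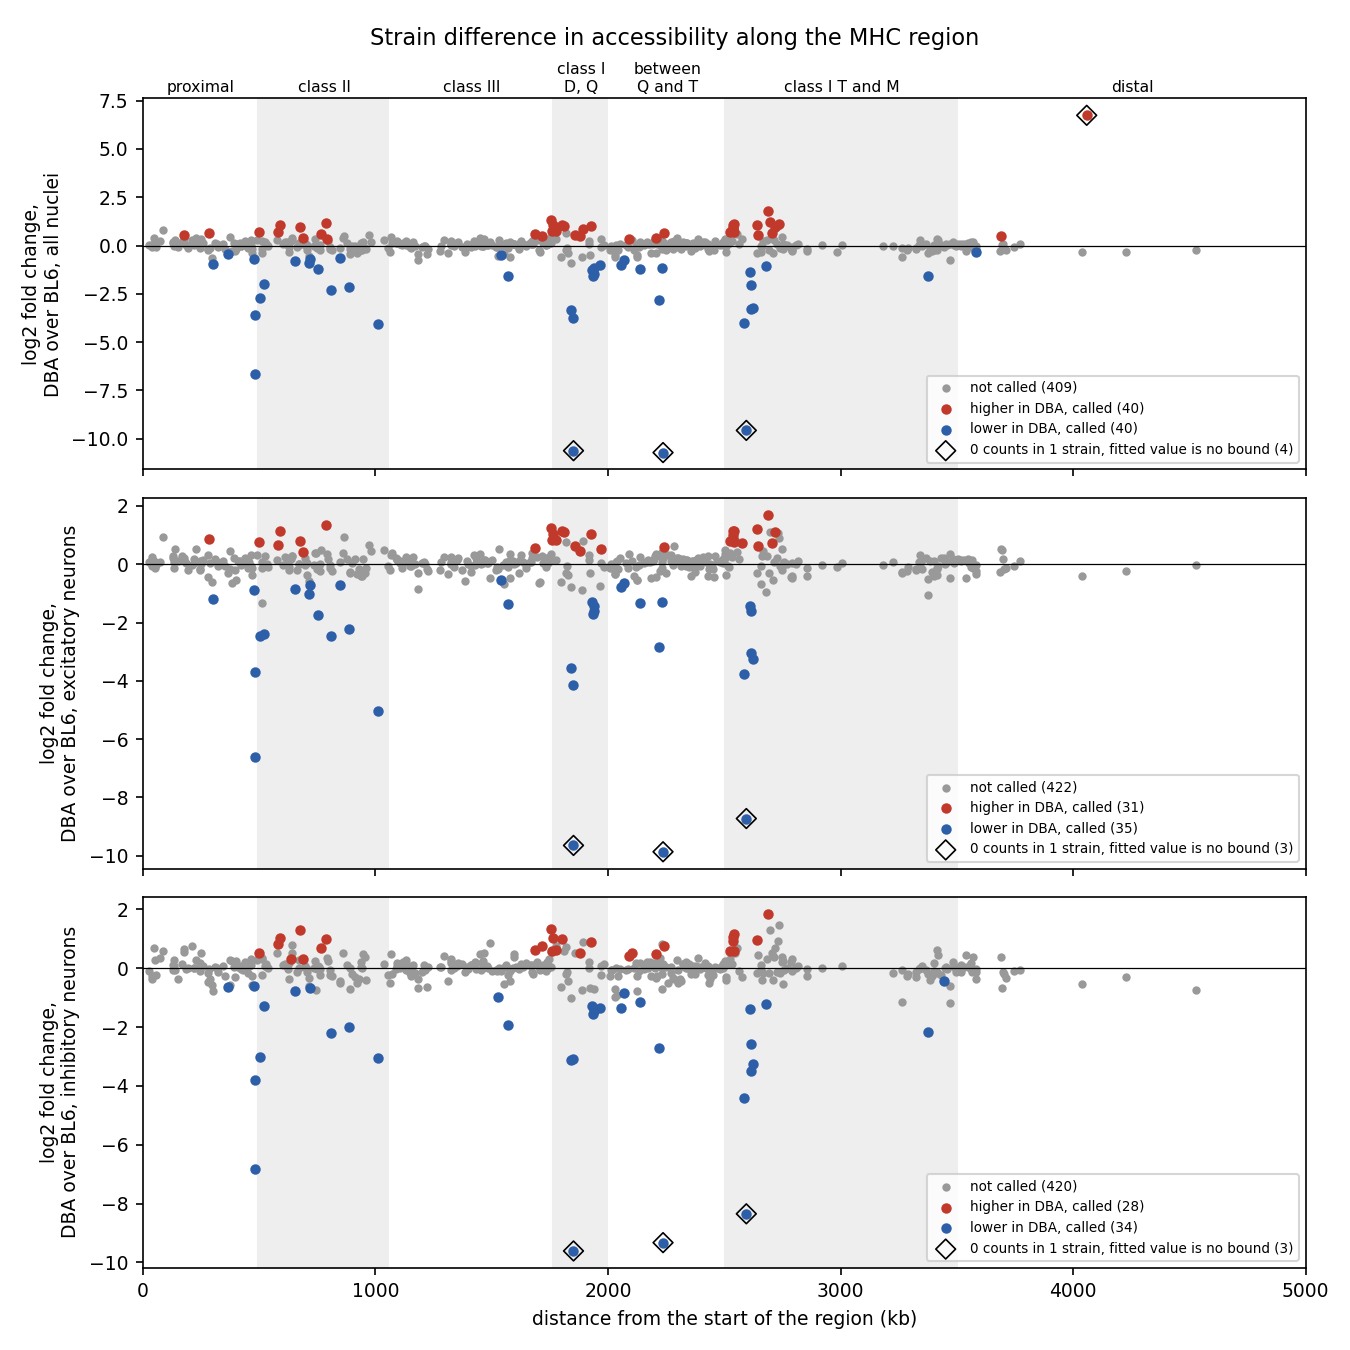
Log2 fold change of DBA over BL6 for each member tested (vertical axes) against distance from the start of the region in kb (horizontal axis), over all nuclei, excitatory neurons and inhibitory neurons; coloured points passed the test, and diamonds mark members with 0 counts in 1 strain, whose fitted value is no bound. Called members are most frequent in the class II and both class I segments, and the 40 lower members over all nuclei reach further from 0 than the 40 higher ones.

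The calls were uneven along the region. In the segment from H2-D1 to Pou5f1, which holds the D and Q class I genes, 16 of 30 members passed over all nuclei, 8 in each direction. The segment from H2-T24 to Mog, with the T and M class I genes, had 21 of 98 (13 higher, 8 lower), and the class II segment from H2-K1 to Notch4 had 18 of 76 (8 higher, 10 lower). The class III segment, from Notch4 to H2-D1, had 6 of 102 (5.88%), close to the share of all peaks. The stretch between the Q and T groups had 9 of 94, the proximal segment 7 of 62 and the distal segment 3 of 27. Within bins of 250 kb, 18 of 34 members passed from 1750 to 2000 kb and 20 of 49 from 2500 to 2750 kb, and none of 48 passed from 2250 to 2500 kb between them.

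**Figure D2:**
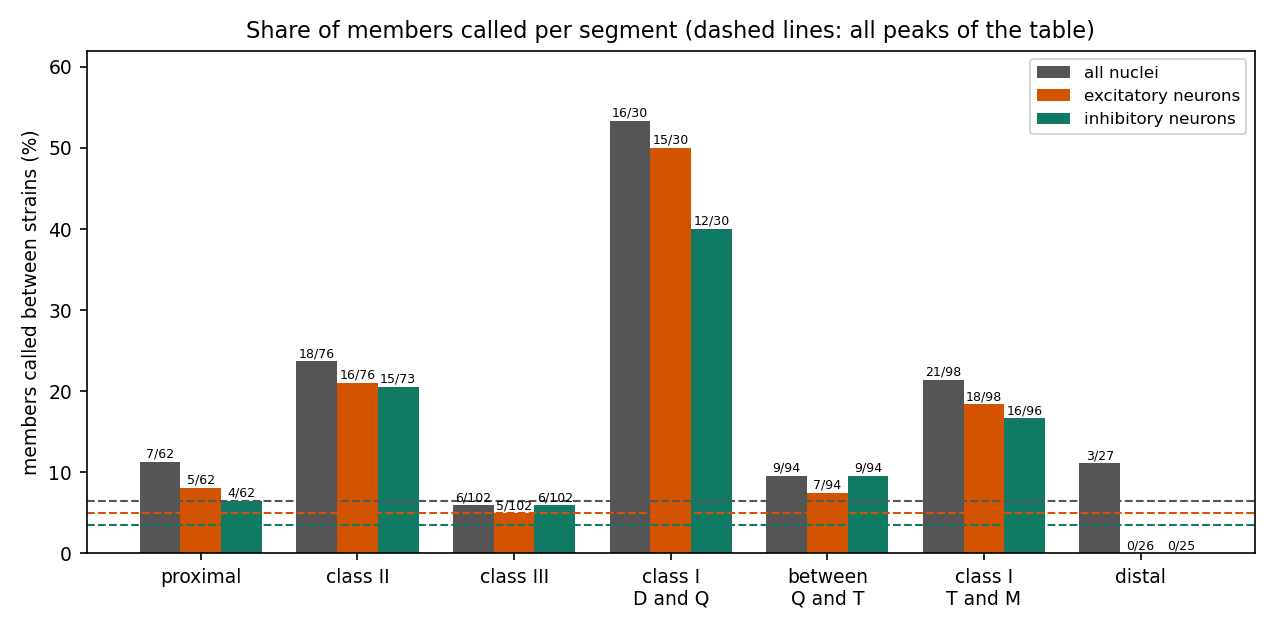
Share of members called between strains (vertical axis, percent) in each segment along the region (horizontal axis), for all nuclei, excitatory and inhibitory neurons, with called and tested members printed above each bar and dashed lines at the share over all peaks. The segment of D and Q class I genes has the tallest bars, 16 of 30 over all nuclei, and the class III bars lie close to the dashed lines.

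The start of H2-D1, a classical class I gene, at 35262500-35263924, had 16.7 and 17.2 CPM in BL6 and 36.5 and 31.2 in DBA. The groups did not overlap, and the log2 fold change of DBA over BL6 was 1.04 (SE 0.10, adjusted p = 2.13e-21). In single cell types this peak was called higher in 8 of 16 types tested and lower in none, with log2 fold changes of 0.52 to 1.20 over the 16. H2-K1, the other classical class I gene of BL6 mice, at 33999286-34000694, had 8.68 and 8.08 CPM in BL6 and 13.8 and 12.2 in DBA, a log2 fold change of 0.68 (SE 0.10, adjusted p = 5.16e-09). It lies at the other end of the complex from H2-D1, and both starts were higher in both DBA libraries than in either BL6 library.

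Of the 29 members at starts of class I and class I-like genes, 8 were higher and 7 lower in DBA, with a median log2 fold change of 0.06. Over all peaks at gene starts 5.63% passed and the median was also 0.06. H2-T22, a non-classical class I gene whose product is bound by some gamma delta T cells, at 36042077-36043929 (shared with the start of Gm6034), had 15.6 and 15.4 CPM in BL6 and 25.3 and 22.9 in DBA, a log2 fold change of 0.68 (SE 0.10, adjusted p = 2.09e-09), and was called higher in 7 of 16 types. H2-Q6 at 35424613-35425890 had 2.65 and 3.29 CPM in BL6 and 5.87 and 5.74 in DBA, a log2 fold change of 1.00 (SE 0.13, adjusted p = 3.36e-13). H2-Q4 at 35379026-35380546 had 6.13 and 6.03 CPM in BL6 and 8.49 and 7.95 in DBA, a log2 fold change of 0.48 (SE 0.11, adjusted p = 0.000401). The H2-Q4 call was lost without BL6 library 2 (adjusted p = 0.0992) or BL6 library 3 (adjusted p = 0.0786). H2-T3, the gene of the thymus leukaemia antigen, chosen after its values were seen, had 0.814 and 0.817 CPM in BL6 and 2.95 and 2.51 in DBA at 36189128-36190052, a log2 fold change of 1.79 (SE 0.18, adjusted p = 1.14e-19). H2-T23, which encodes Qa-1, did not pass, with 11.0 and 11.1 CPM in BL6 and 12.8 and 12.2 in DBA (log2 fold change 0.23, adjusted p = 0.224). H2-M3, which presents N-formylated peptides, did not pass either, at 11.7 to 11.9 CPM in all 4 libraries.

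Other class I starts were lower in DBA by larger amounts. H2-Bl, at 36082736-36084682, had 8.90 and 9.23 CPM in BL6 and 0.510 and 0.586 in DBA, a log2 fold change of -4.01 (SE 0.16, adjusted p = 2.71e-123), and was called lower in 9 of 10 types tested. H2-T10, at 36120802-36122802, had 8.87 and 9.71 CPM in BL6 and 0.982 and 0.932 in DBA, a log2 fold change of -3.23 (SE 0.14, adjusted p = 1.6e-100). H2-Q2, at 35341861-35343353, had 5.27 and 5.61 CPM in BL6 and 0.634 and 0.406 in DBA, a log2 fold change of -3.31 (SE 0.18, adjusted p = 5.38e-72). Each of these starts kept some counts in both DBA libraries, all below 1 CPM. H2-Q7, whose product belongs to the Qa-2 antigens, had 6.54 and 6.76 CPM in BL6 and 2.49 and 2.07 in DBA at 35438533-35439635, a log2 fold change of -1.49 (SE 0.13, adjusted p = 1.78e-27). A second member at its start, 35439881-35440448, had a log2 fold change of -1.17, and its call was lost with DESeq2 (adjusted p = 0.0608) and without BL6 library 3 (adjusted p = 0.136). The start of H2-T-ps and BC023719, at 36110329-36111881, fell by 1.36 on the log2 scale and was called lower in 8 of 9 types.

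**Figure D3:**
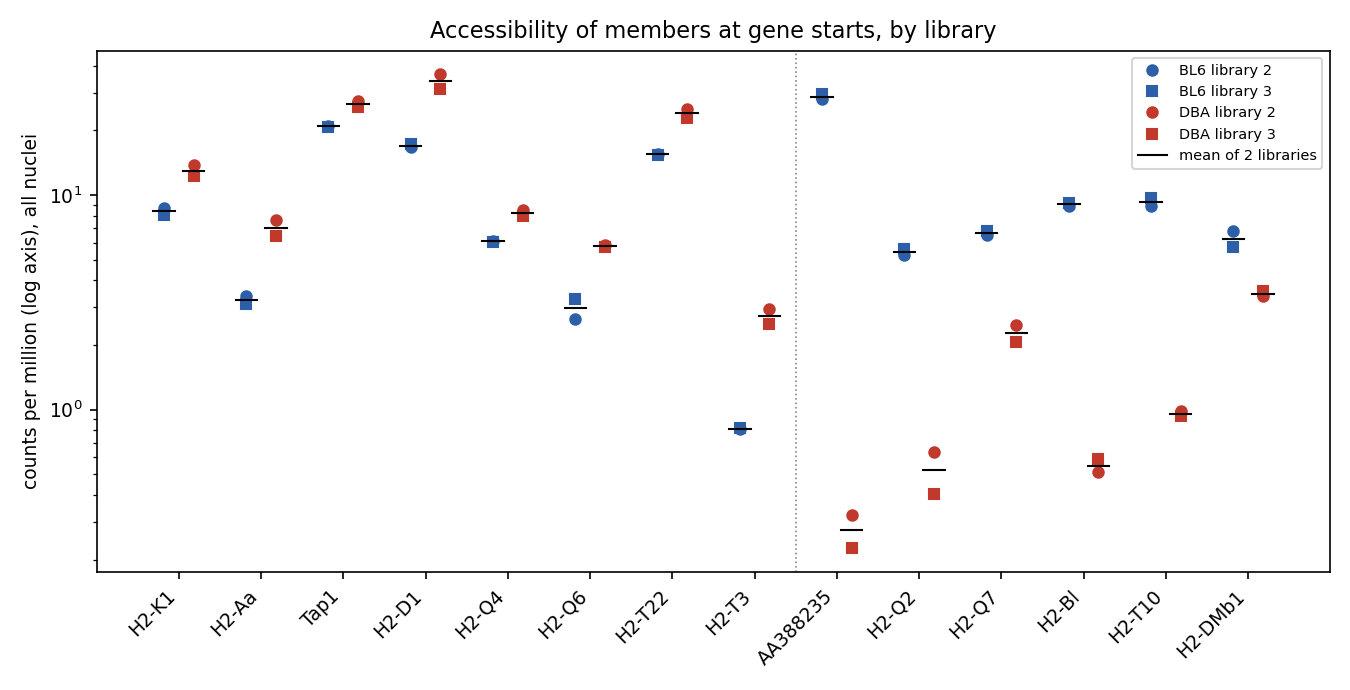
CPM over all nuclei (vertical log axis) at 14 gene starts (horizontal axis) in each of the 4 libraries, circles for library 2 and squares for library 3, with a line at the mean of the 2 libraries of a strain. The starts were chosen among those that passed and ordered by direction with their values known, so the split at the dotted line is built in. Where a gene had several start members, that of the smallest adjusted p is shown. Starts that did not pass, such as H2-T23 and H2-M3, are left out. To the left of the dotted line every DBA point lies above every BL6 point, and to the right every DBA point lies below, by most at AA388235.

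The member that differed most among those with counts in both strains lay at the start of AA388235, a predicted gene next to H2-K2, at 33980722-33981744. It had 27.9 and 29.6 CPM (2024 and 2569 counts) in BL6 and 0.323 and 0.225 CPM (26 and 15 counts) in DBA, a log2 fold change of -6.63 (SE 0.17, adjusted p = 7.33e-274). It was called lower in 14 of 15 types, with called log2 fold changes from -8.46 to -4.55. Next to it, and singled out after the values were seen, a second member at 33982028-33982419 fell by 3.58 on the log2 scale and the start of H2-K2 at 33977886-33979160 fell by 0.72. Another 3 members, all between genes and named as the whole of a small count, had no counts in either DBA library. They were 35350876-35351945 in the Q group (184 and 232 counts in BL6, at least 128-fold lower in DBA against a floor of 3 counts over the strain), 35736195-35736614 near Ddr1 (207 and 237 counts, at least 136-fold lower) and 36094065-36094991 near H2-Bl (85 and 116 counts, at least 61.8-fold lower). A single member, 37558031-37558239 among the olfactory receptor genes, had none in either BL6 library and 13 and 12 counts in DBA, at least 9.04-fold higher.

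At the starts of class II genes, 1 of 7 members was higher, 1 was lower and 5 did not pass, with a median log2 fold change of -0.07 beside the 0.06 over all peaks at gene starts, of which 5.63% passed. H2-Aa, which encodes the alpha chain of the class II A molecule, had 3.40 and 3.09 CPM in BL6 and 7.65 and 6.45 in DBA at 34287527-34288050, a log2 fold change of 1.17 (SE 0.12, adjusted p = 1.89e-19). It was called higher in 6 of 10 types. H2-Ab1, which encodes the beta chain of the same molecule, had 7.62 and 8.17 CPM in BL6 and 6.44 and 6.84 in DBA at 34262683-34263525, and did not pass (log2 fold change -0.21, SE 0.11, adjusted p = 0.339). H2-DMb1, a chain of the peptide editor H2-DM, had 6.78 and 5.74 CPM in BL6 and 3.38 and 3.56 in DBA at 34152609-34153432, a log2 fold change of -0.80 (SE 0.12, adjusted p = 5.64e-09). H2-DMa shares its start peak with Brd2, a bromodomain gene active in most cells, and this peak had 58.1 to 67.8 CPM in the 4 libraries with a log2 fold change of 0.04. Both members at the start of H2-Eb1 also did not pass (log2 fold changes -0.07 and -0.16), while a member inside the gene, 34309372-34310104, had 9.99 and 11.0 CPM in BL6 and 2.45 and 1.58 in DBA, a log2 fold change of -2.32 (SE 0.13, adjusted p = 3.06e-62). It was called lower in 9 of 12 types.

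Of the 6 members at starts of peptide loading genes, 1 passed. Tap1 and Psmb9, the genes of a peptide transporter subunit and an immunoproteasome subunit, share a start peak at 34186623-34188362 with 21.0 and 20.8 CPM in BL6 and 27.4 and 25.7 in DBA, a log2 fold change of 0.39 (SE 0.10, adjusted p = 0.00353). That call was lost without BL6 library 2 (adjusted p = 0.278), BL6 library 3 (adjusted p = 0.189) or DBA library 2 (adjusted p = 0.0619). Tap2, the other transporter subunit, had 11.0 and 11.2 CPM in BL6 and 11.8 and 10.3 in DBA (log2 fold change 0.04). Tapbp, the gene of tapasin, and Psmb8 also did not pass, with log2 fold changes from -0.01 to 0.13 over their 4 members. Neither member at a complement gene start and none of the 3 at starts of Lta and Ltb, genes of the tumour necrosis factor family, passed. The start of Lst1, a leukocyte gene beside them that was chosen after its values were seen, had 6.67 and 7.34 CPM in BL6 and 11.1 and 9.59 in DBA, a log2 fold change of 0.61 (SE 0.11, adjusted p = 7.97e-07).

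Away from gene starts 51 of 301 members passed (16.9%; 6.53% of all such peaks), and at gene starts 29 of 188 (15.4%; 5.63% of all such peaks). A member between genes in the D and Q segment, 35301596-35302320, had 3.84 and 3.57 CPM in BL6 and 8.45 and 6.55 in DBA, a log2 fold change of 1.07 (SE 0.12, adjusted p = 3.51e-17), and was called higher in 6 of 8 types. A member between Q and T, 35720050-35720881, had 4.39 and 4.90 CPM in BL6 and 0.535 and 0.751 in DBA, a log2 fold change of -2.83 (SE 0.17, adjusted p = 2.18e-53). Inside Btnl1, a butyrophilin-like gene, 34384308-34385516 had 7.67 and 6.34 CPM in BL6 and 1.57 and 1.44 in DBA, a log2 fold change of -2.16 (SE 0.14, adjusted p = 3.26e-50), and was called lower in all 7 types in which it could be tested.

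The member with the most counts lay beside Gm18604 at 36231103-36231784, a peak of 681 bases, and it was also first per kb of peak length. It had 93.8 and 104 CPM in BL6 and 247 and 141 in DBA. The groups did not overlap, but the 2 DBA libraries stood further apart than the BL6 libraries stood from DBA library 3, and the log2 fold change of 1.02 (SE 0.28) did not pass over all nuclei (adjusted p = 0.126). In single types it was called higher in 9 of 16. This peak moved the summed level of its segment. With it the T and M segment had 517 ± 10 CPM in BL6 and 602 ± 89 in DBA (SD, n = 2 libraries), and without it 417 ± 2.9 and 408 ± 14, a comparison added after the data were seen. The D and Q segment had 82.5 ± 0.77 CPM in BL6 and 95.3 ± 9.0 in DBA. Summed over all 489 members the region took 0.404% ± 0.004 of counts in BL6 and 0.415% ± 0.028 in DBA. The DBA libraries differed from each other by more than the strain means did.

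The strain differences recurred across cell classes of the same libraries. In excitatory neurons 66 of 488 members passed (31 higher, 35 lower), against 4.93% of all peaks (2.53% higher, 2.4% lower), and in inhibitory neurons 62 of 482 (28 higher, 34 lower), against 3.47% of all peaks (1.88% higher, 1.58% lower). With a library left out, the higher calls ran from 20 (without BL6 library 2) to 52 (without DBA library 3) in excitatory neurons and from 11 (without BL6 library 3) and 17 (without BL6 library 2) to 45 (without DBA library 3) in inhibitory neurons, and the lower calls from 26 to 37 and from 25 to 40. Over all peaks the higher calls of both classes also fell without either BL6 library and rose without DBA library 3. Of the 80 members called over all nuclei, 64 were called the same way in excitatory and 58 in inhibitory neurons. The counts over all nuclei are sums that include these classes, so this agreement was largely built in. All 50 members called in both classes had the same direction in both. The shares over all peaks were not computed for these 3 counts. H2-D1 had log2 fold changes of 1.02 in excitatory and 1.02 in inhibitory neurons, and H2-Aa 1.34 and 0.98. H2-Bl had -3.77 and -4.41, and AA388235 -6.61 and -6.83. Over 16 single types, fitted separately, 245 of 3472 tests of members passed (7.06%; 2.04% of all peak tests), 89 higher and 156 lower, where 1.02% of all peak tests passed each way. They fell on 73 members, and no member was called in both directions. Exc-Tafa1, the type with the most counts, had 47 of 460 members called (3.28% of all peaks), and Inh-Tshz1 had 42 of 365 (2.91%).

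Non-neuronal nuclei, with the fewest counts, could be tested at 163 members, and 2 passed, 1 in each direction (0.192% of all peaks; 0.117% higher, 0.0748% lower). The H2-D1 start had 27.0 and 27.6 CPM in BL6 and 49.7 and 64.4 in DBA, a log2 fold change of 1.10 (SE 0.21, adjusted p = 0.0414). The AA388235 start had 31.1 and 35.7 CPM in BL6 and 2.04 and 0 in DBA, a log2 fold change of -4.95 (SE 0.62, adjusted p = 0.00077). With DESeq2 1 member passed, lower in DBA, and at a fold threshold of 1.5 also 1, again lower, so the H2-D1 call was lost under both. Over all 30762 peaks tested 50 and 46 passed. No member's strain difference passed a test of the difference between non-neuronal nuclei and neurons, by edgeR or DESeq2. With edgeR no peak of the whole table passed this test either. An unadjusted edgeR p under 0.05 was found for 11 of 488 members and for 6240 of all 270840 peaks tested. Members below the filter on low counts were not tested in these nuclei.

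In the test of the difference between excitatory and inhibitory neurons, 1 of 488 members passed (0.246% of all peaks). It was the start of Rnf39, a RING finger gene in the T and M segment, at 36942316-36943495, with 5.59 and 7.41 CPM in BL6 and 7.31 and 7.36 in DBA in excitatory neurons, and 11.8 and 11.8 against 9.94 and 6.98 in inhibitory neurons. The strain differences were 0.22 (SE 0.13) and -0.43 (SE 0.13) on the log2 scale, and differed by 0.65 (SE 0.15, adjusted p = 0.0456). The excitatory values overlap between strains and the inhibitory values do not. The call was lost with DESeq2 and without BL6 library 2 or DBA library 3.

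Between the cell classes themselves, more of the called members were lower than higher in excitatory neurons. At a fold threshold of 1.5 this majority turned round, with 35 members higher and 13 lower. At that threshold 47550 of all 269601 peaks tested were higher and 27441 lower, so the whole table also had more higher than lower calls. Of 488 members 271 passed (60.8% of all peaks). Of these 65 were higher in excitatory neurons (13.3%; 31.3% of all peaks) and 206 lower (42.2%; 29.5% of all peaks), with a median log2 fold change of excitatory over inhibitory of -0.23 against -0.02 for all peaks. At gene starts 16 were higher and 122 lower of 188, where 15.4% and 57.8% of all start peaks were. Away from gene starts 49 were higher and 84 lower of 300, against 33.2% and 26.1% of all such peaks. The largest excitatory excess at a gene start that was named lay at Tnxa, a pseudogene of the matrix protein gene tenascin XB, with 12.9 ± 1.5 CPM in excitatory and 3.20 ± 0.16 in inhibitory neurons (SD over 4 libraries), a log2 fold change of 1.93 (SE 0.09). Cdsn, the corneodesmosin gene, had 13.4 against 5.80 CPM (log2 fold change 1.12). A member inside Mog, which encodes a myelin glycoprotein of oligodendrocytes, had 8.56 ± 0.50 CPM in excitatory and 3.44 ± 0.56 in inhibitory neurons (log2 fold change 1.22). A member inside Gabbr1, the gene of a GABA-B receptor subunit, went the other way, with 6.86 ± 0.53 against 12.4 ± 0.79 CPM (log2 fold change -0.94), as did the start of H2-Ke6, a steroid dehydrogenase gene in the class II segment (14.3 against 21.96 CPM, log2 fold change -0.69). Each of these 5 differences passed the test.

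**Figure D4:**
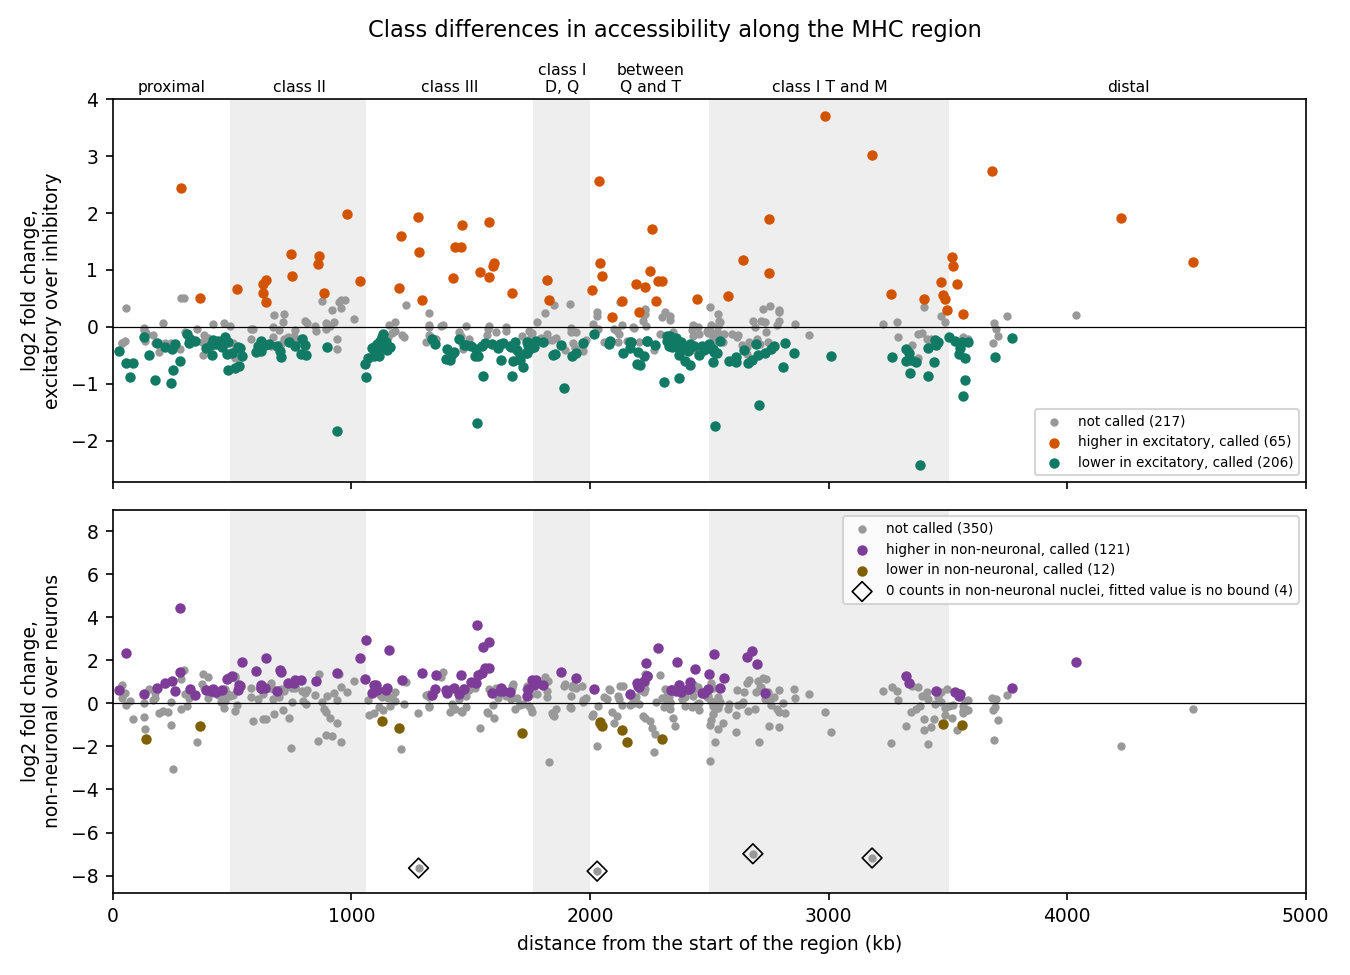
Log2 fold change of excitatory over inhibitory neurons (top) and of non-neuronal nuclei over neurons (bottom) for each member tested, against distance from the start of the region in kb; coloured points passed the test, and diamonds mark members with 0 counts in non-neuronal nuclei, whose fitted value is no bound. More called members lie below 0 than above in the top panel (206 of 271), and most lie above 0 in the bottom panel (121 of 133). At a fold threshold of 1.5 the top split is 13 below and 35 above, where 27441 and 47550 of all peaks are.

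Against neurons, non-neuronal nuclei differed at 133 of 483 members (17.7% of all peaks). They were higher at 121 (25.1%; 8.17% of all peaks) and lower at 12 (2.48%; 9.55% of all peaks), with a median log2 fold change of 0.36 against -0.49 over all peaks. At gene starts 85 of 188 were higher (32.3% of all start peaks) and away from them 36 of 295 (5.31% of all such peaks). The class I start of H2-Q4 had 17.6 ± 1.6 CPM in non-neuronal nuclei and 6.93 ± 1.3 in neurons, a log2 fold change of 1.46. H2-K1 had 23.5 ± 10 against 10.4 ± 2.7 CPM (1.27), and H2-D1 had 42.2 CPM, against 22.9 in excitatory and 27.7 in inhibitory neurons (0.84). Over starts of class I and class I-like genes 8 of 29 members were higher in non-neuronal nuclei and 1 lower, over class II starts 3 of 7 higher, and over peptide loading starts 4 of 6 higher. Among the loading genes Tap2 had 27.9 ± 6.7 CPM against 10.7 ± 0.82 (1.48), and among class II genes H2-Ab1 had 14.2 ± 3.5 CPM in non-neuronal nuclei, where the excitatory and inhibitory means were 7.17 and 7.03 (1.10). Psmb8 had 6.97 ± 2.0 CPM against 2.58 ± 0.27 (1.54) at 34198050-34198653. The other members named for the size of this difference lay outside antigen presentation genes. Ppp1r18, an actin cytoskeleton gene, had 27.2 ± 5.9 CPM (1.94), Col11a2, a collagen gene, 36.4 ± 4.8 CPM (1.91), Ddah2, a dimethylarginine hydrolase gene, 28.2 ± 6.3 CPM (1.64), and a member between genes at 34655390-34655932 16.9 ± 7.7 CPM against 3.13 ± 0.17 (2.46). As background for these values, neuronal marker peaks were also present in the non-neuronal nuclei, as given above. In such summed counts fewer open nuclei and less signal per nucleus cannot be told apart.

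**Figure D5:**
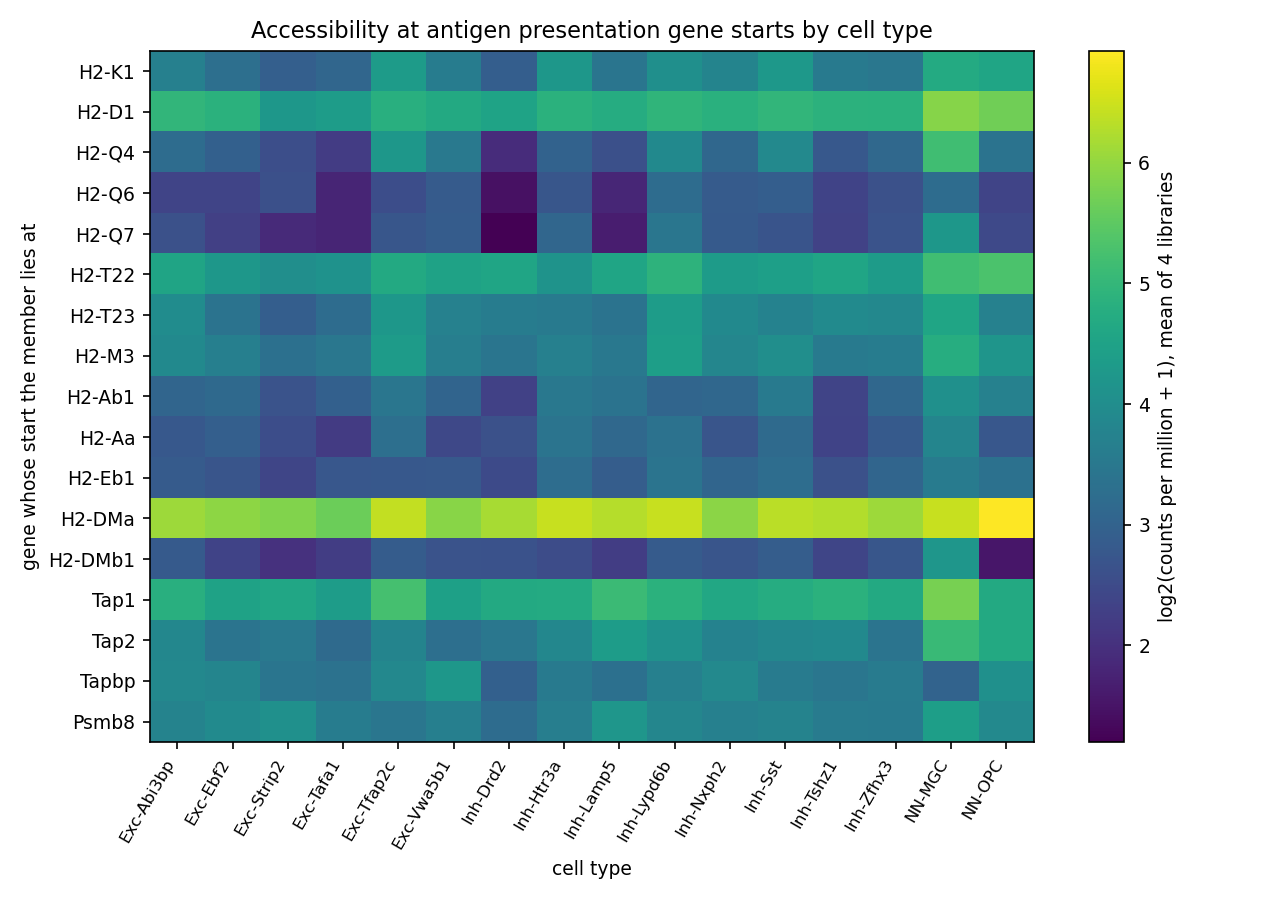
Mean accessibility over 4 libraries, as log2(CPM + 1) on the colour scale, at members at starts of 17 antigen presentation genes (rows) in 16 cell types (columns); the H2-DMa row is the peak shared with Brd2. H2-D1, H2-Q4 and Tap1 are highest in NN-MGC.

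By cell type, the share of counts in members ran from 0.346% in Exc-Strip2 and 0.351% in Exc-Tafa1 to 0.533% in NN-OPC and 0.581% in NN-MGC, named as in the table. The H2-D1 start ran from 17.8 ± 7.0 CPM in Exc-Strip2 to 58.7 ± 23 in NN-MGC (SD over the 4 libraries of both strains), and the H2-Q4 start from 2.78 in Inh-Drd2 to 35.0 ± 5.9 in NN-MGC. Among the 43 members in NN-MGC and the 31 in NN-OPC with 10 or more counts in each library, which did not include the H2-Q4 start, the H2-D1 start lay furthest above the mean of the other types, by ratios of 2.11 and 1.78, within spreads of 23 and 19 CPM. Some members away from gene starts were closer to 1 type. At 36682066-36682342 Exc-Vwa5b1 had 3.06 ± 0.21 CPM against a mean of 0.0703 over the other types, and inside BC051142 at 34438487-34438917 Inh-Drd2 had 10.6 ± 3.3 against 1.08. Inside BC051537 at 34088120-34088684 Inh-Lamp5 had 14.0 ± 8.1 CPM against 1.75, and inside A930015D03Rik at 36024990-36025293 Inh-Tshz1 had 5.73 ± 0.67 against 0.980. These members were chosen for their ratio, so the ratios are a description.

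RNA of the region's genes was read beside the peaks. Of 359 RefSeq symbols 214 were in the RNA table and 154 could be tested, and 14 passed (9.09%; 4.88% of all genes), 5 higher (1.71% of all genes) and 9 lower (3.18%) in DBA. Of 130 tested genes with a member at the start, 12 passed in RNA, 15 had a called start member and 3 had both. The same shares over all genes with a start peak were not computed, so this overlap is a description only. H2-Q2 was one of the 3, with 1.75 and 1.37 CPM of RNA in BL6 and 0.156 and 0.158 in DBA, a log2 fold change of -3.26 (SE 0.39, adjusted p = 0.00441), the same direction as its start peak. H2-Q7 had 0.317 and 0.489 CPM in BL6 and 1.93 and 1.56 in DBA, a log2 fold change of 2.21 (SE 0.35, adjusted p = 0.0157), the opposite direction to its start peak. A930015D03Rik is a long non-coding gene that spans H2-T24 and H2-T23 and overlaps part of H2-T22. Its RNA had 115 and 102 CPM in BL6 and 34.6 and 40.9 in DBA, a log2 fold change of -1.47 (SE 0.13, adjusted p = 0.00111). A member at one of its starts, 36037924-36038162, was higher by 0.93. Cfb, the gene of complement factor B, had 2.14 and 1.79 CPM in BL6 and 0.156 and 0.178 in DBA, a log2 fold change of -3.49 (SE 0.36, adjusted p = 0.00255), with no called member at its start. Without DBA library 3 the RNA count fell to 5 genes and without DBA library 2 to 7, with 1 higher gene in each case, and without either BL6 library 2 genes were higher. The H2-Q7 call was lost without DBA library 2 (adjusted p = 0.0957) or DBA library 3 (adjusted p = 0.0777), and the H2-Q2 call without DBA library 3 (adjusted p = 0.0609).

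The classical class I genes did not pass in RNA. H2-D1 had 8.46 and 12.1 CPM in BL6 and 17.1 and 12.6 in DBA (log2 fold change 0.59, SE 0.22, adjusted p = 0.248), with both DBA values above both BL6 values, and H2-K1 had 4.92 and 10.2 in BL6 and 7.59 and 4.88 in DBA (-0.21, adjusted p = 0.859), which overlap. H2-T22 had 10.4 and 10.1 CPM against 7.97 and 8.18 (-0.30, adjusted p = 0.426). H2-Aa RNA had 2 and 47 counts in BL6 and 51 and 6 in DBA, and H2-Ab1 had 7, 36, 41 and 12, so that the class II counts lay mostly in 1 library of each strain. H2-Ea, for which no start member was found, had 0 and 0 counts in BL6 and 42 and 6 in DBA. AA388235 had 32 and 24 counts in BL6 and none in DBA, the direction of its start peak. H2-T10 had none in BL6 and 21 and 44 counts in DBA, and H2-Bl none in BL6 and 8 and 6 in DBA, both opposite to their start peaks. In all, of the 214 symbols of the region in the RNA table, 12 were counted only in DBA libraries (10 or more counts against 0) and 5 only in BL6 libraries. Over the whole table of RNA counts, of 29040 symbols counted in either strain 5316 were counted only in DBA and 290 only in BL6. The gene annotation used for each strain is not given in the sources used here, so a 0 may mean that a symbol was not in a strain's list, and what annotation and near-identical copies did to these RNA values was not tested.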

How the data were processed

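Single-nucleus ATAC-seq and RNA-seq of amygdala were analysed in 4 libraries each, 2 per strain, grouped by the strain label. The authors deposited raw counts per peak or gene, already added up within every cell type of a library, and the number of nuclei behind each sum, also as counts. Per the submitters' processing notes, ATAC was processed with Cell Ranger ATAC 2.0.0 and Seurat and RNA with Cell Ranger 6.0.2 and Seurat 4.0.5, on mm10. The peak caller, the base from which peak starts are counted, what 1 ATAC count stands for, filters on nuclei and the treatment of doublets are not given in the sources used here. Cell type names are the authors' own. Counts were summed over all nuclei and over excitatory, inhibitory and non-neuronal types, and shown as CPM of the total of that sum in the library.

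Each comparison was fitted on the whole table with edgeR 4.0.16 in R 4.3.3 (TMM scaling, filterByExpr with a minimum count of 10, robust quasi-likelihood test, Benjamini-Hochberg adjustment over all features tested), and only rows of the region are reported. Adjusted p under 0.05 was called. Class and strain-by-class tests held the library as a block. Single cell types were tested where all 4 columns had 10 nuclei and 100000 counts, which held for 16 types. RNA was tested for genes with 10 or more counts in each strain. Annotation came from RefSeq (GRCm38.p6), with a gene start taken as within 1 kb, and 215 of the 359 genes of the region had a promoter entry. Pairs of upstream stretches were aligned with Biopython 1.88.

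Members named were the 5 of highest level, the largest called changes each way at or above the median level, those called in the most types, the highest of each type, and the starts of a list of MHC, neural and other genes. The members and lists were chosen with earlier results of these data known. Alternatives were RLE factors, total counts, no filter, DESeq2 1.42.0, a 1.5-fold threshold, each library left out, a block, a core region from H2-K1 to Mog, every RNA gene, and 5 kb for gene starts. The edgeR fit was tested on simulated data for 6 of the comparisons. Permuting 2 libraries against 2 cannot give a p below 0.333, so no permutation test was run.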

Additional observations from a re-analysis of the deposited data

Results flagged for a closer look

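The start of Rnf39 at 36942316-36943495 was the 1 member whose strain difference passed a test of the difference between excitatory and inhibitory neurons. The log2 fold change of DBA over BL6 was higher by 0.65 (SE 0.15, adjusted p = 0.0456, edgeR) in excitatory neurons. All libraries enter both classes. Among inhibitory nuclei DBA library 3 (6.98 CPM) lay below DBA library 2 (9.94 CPM), and the difference did not pass without DBA library 3. No cause was tested.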

How the results depend on the processing

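Of 106 alternatives to the counts of called members, 77 stayed within 1.5 times. At a fold threshold of 1.5 the counts were 34 over all nuclei, 29 in excitatory, 26 in inhibitory and 1 in non-neuronal nuclei, 48 for excitatory against inhibitory neurons (35 higher and 13 lower, a reversal of the 65 and 206), 38 for non-neuronal nuclei against neurons, 0 for strain by class, 129 over single types and 6 for RNA. Over all peaks this threshold called 4378 of 271420 over all nuclei, 4225 of 269657 in excitatory, 2534 of 260830 in inhibitory and 46 of 30762 in non-neuronal nuclei. It called 74991 of 269601 for excitatory against inhibitory neurons (47550 higher, 27441 lower), 19099 of 266117 for non-neuronal nuclei against neurons and 64 of 271215 for strain by class. DESeq2 gave 33 in inhibitory neurons, 1 in non-neuronal nuclei and 0 for strain by class, where 2781, 50 and 28 of all peaks passed. Non-neuronal nuclei had 5 called members with no filter (138 of 261200 over all peaks) and 1 in the core region. Strain by class (excitatory against inhibitory) had 0 with total counts alone (663 of 271215 over all peaks) and 0 with no replicate block. With each library left out in turn, the lone library of a strain being assumed to vary like the other strain's, the counts ran from 56 to 97 over all nuclei, 48 to 83 in excitatory neurons, 36 (without BL6 library 3) to 77 in inhibitory neurons and 2 to 4 (without either DBA library) in non-neuronal nuclei. Under the same omissions they ran from 146 (without BL6 library 3; 159 without BL6 library 2) to 250 over single types, 0 (without BL6 library 2 or DBA library 3) to 2 (without BL6 library 3) for strain by class, and 5 (without DBA library 3; 7 without DBA library 2) to 13 for RNA. The table numbers did not pair the libraries (correlation of same-numbered deviations -0.05 for ATAC and -0.38 for RNA): a replicate block gave 7 RNA genes, and a block with crossed numbers, added after the data were seen, 32 (2823 over all genes, against 1033 over all genes with no block). Adding the block moved no other count over all nuclei, a class or the single types together by over 1.5 times (among single types Exc-Tfap2c and Inh-Drd2 went from 3 to 1 and NN-OPC from 1 to 0), and of the named members over all nuclei only the Tap1 start lost its call under it (adjusted p = 0.106). Taking every RNA gene gave 27. Over all peaks, the calls for all nuclei and both neuron classes also fell without either BL6 library and rose without DBA library 3. The cause of these changes in counts was not tested. Gene starts within 5 kb took in 355 members in place of 188. Without the member of most counts, the T and M segment summed to 417 CPM in BL6 and 408 in DBA, and all members to 3936 CPM in BL6. Of the members named as called, 25 over all nuclei, 23 in excitatory and 24 in inhibitory neurons, none reversed; 14, 13 and 10 were called under every alternative. In non-neuronal nuclei 163 of 489 members passed the filter on low counts, and the others were not tested.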
